A study of Homo sapiens with 3 samples.

Results

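The array of L-540 cells, an established Hodgkin's lymphoma (HL) cell line, was set against those of the HL cell lines L-428 and HDLM-2, and the 100 genes that set it apart from both are described here. Total RNA of each line had been hybridized to 1 Affymetrix Human Exon 1.0 ST array, on which a transcript cluster summarises the exons of a gene. The values are RMA normalized signal intensities on the linear scale, and a gene with an intensity above 100 was counted as expressed. Vorinostat, which inhibits histone deacetylases, is mentioned in the descriptions of the L-428 and HDLM-2 samples and is absent from that of L-540, although the paper itself gives no treatment for this experiment. The labels give no dose or time. Line and treatment therefore cannot be told apart in any difference given here. There were no replicates, so no test was made and every value is a description.

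Genes were chosen by their signal in 2 directions. A gene was taken as higher in L-540 if its intensity there exceeded 100 and was at least 2-fold above the higher of L-428 and HDLM-2. It was taken as lower if L-540 was at least 2-fold below the lower of the other lines and both of these exceeded 100. Of 14232 genes with a transcript cluster of their own, 50 were higher (0.351%) and 50 were lower (0.351%), which gave 100 genes in all. With the arrays shifted to one median the split was 59 higher and 40 lower, and with quantile normalization of the 3 arrays it was 62 and 36. Among the 569 genes above 100 in L-540, the higher genes made up 8.79%, and among the 399 genes above 100 in both other lines, the lower genes made up 12.5%. The same rule gave 418 higher genes (2.94%) and 46 lower genes (0.323%) for L-428, and 45 higher (0.316%) and 74 lower (0.52%) for HDLM-2. These counts follow from the rule and from the brightness of each array, and are not read as a result.

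HL cells are unusual among lymphoma cells in that most of their lineage program is switched off, while cytokines, their receptors and activation markers such as CD30 (TNFRSF8) are expressed. L-428 cells carry rearranged immunoglobulin genes, as B cells do, whereas L-540 and HDLM-2 cells carry rearranged T cell receptor genes. Surface receptors decide where a lymphocyte migrates and which cells it binds, and cytokines and their receptors decide which growth and survival signals it receives.

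The L-428 array was the brightest, with 957 genes above 100, while L-540 had 569 and HDLM-2 had 498. The median log2 difference of L-540 was -0.77 from L-428 and 0.081 from HDLM-2 over the 1128 genes expressed in some line, while over all genes it was 0 in both comparisons. For 5659 genes the 3 arrays held the same value, and no equality of expression is read from a tie. Among the genes described here, L-428 and HDLM-2 were tied for 3 of the 50 higher and 5 of the 50 lower genes. The RNA comes from bulk cultures, in which fewer cells with a transcript and less transcript per cell cannot be told apart.

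The label was checked against lineage markers. TNFRSF8 had a signal of 158 in L-540, while L-428 had 145 and HDLM-2 had 158, and the activation factor IRF4 had 598 in each line. FSCN1, an actin bundling protein used to recognise HL cells, had 217 in L-540, against 2075 and 697 in L-428 and HDLM-2. L-540 thus exceeded 100 in 3 of these 7 HL markers, and TRAF1, CCL17, CCL22 and FUT4 lay between 12.2 and 24.4 there. None of 13 measured T cell markers exceeded 100 in L-540, and the highest of them, CD7, had 27.6. None of 7 B cell markers exceeded 27.0 in L-540. The summed signal of the T cell markers was 116 in L-540, while L-428 had 215 and HDLM-2 had 138, and that of the B cell markers was 67.8, 55.5 and 57.7 in the same order. Each order rests on a single gene. GATA3 had 22.7, 134 and 51.0, and without it L-540 did not have the lowest T cell sum. BLK had 27.0, 9.29 and 11.1, and without it L-540 did not have the highest B cell sum. Markers of myeloid cells (6 measured), red cells and platelets (3) and fibroblasts (5) lay at or below 14.0 in all lines. In summed signal, the myeloid markers had 27.5 in L-540, against 21.1 and 27.6 in L-428 and HDLM-2, the red cell and platelet markers 11.9, 11.9 and 13.2, and the fibroblast markers 28.4, 28.2 and 28.4.

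**Figure D1:**
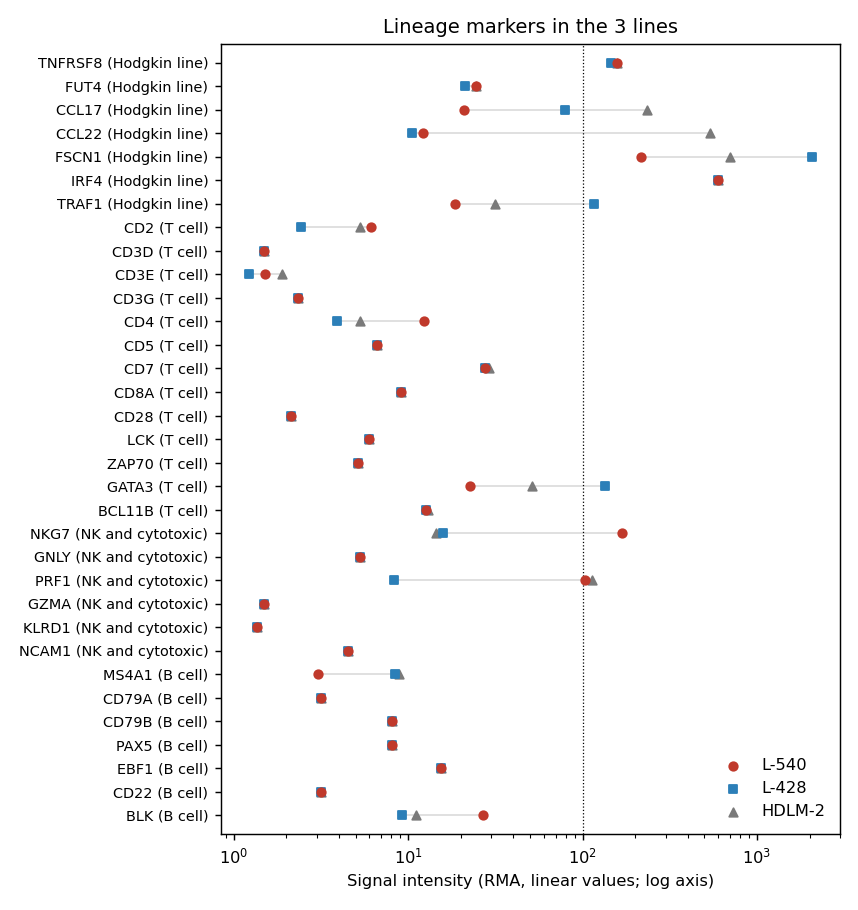
Signal intensities (linear RMA values, log axis) of markers of HL cells, T cells, NK and cytotoxic cells and B cells in the 3 lines, 1 point per array, with the threshold of 100 as a dotted line. Tied points hide each other. L-540 exceeds 100 for TNFRSF8, FSCN1, IRF4, NKG7 and PRF1, and for no other marker shown.

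The higher genes had a median signal intensity of 210 in L-540, while L-428 had 46.0 and HDLM-2 had 45.9, and the median fold to the nearer line was 3.38. In 38 of the 50, neither other line exceeded 100, in 5 one of them did and in 7 both did. The fold to the nearer line was at least 4 for 20 genes, at least 8 for 7 and at least 16 for 4. The lower genes had a median of 52.2 in L-540, against 218 and 208 in L-428 and HDLM-2, and a median fold of 2.84. L-540 was not above 100 for 41 of them, and the fold was at least 4 for 19, at least 8 for 12 and at least 16 for 5. No measure of background accompanies the values, so a fold that rests on a signal below the median of its array (7.41 in L-540, 9.18 in L-428 and 7.16 for HDLM-2) is given as a lower bound, with that signal raised to the median. This was chosen after the data were seen, and it left 2 higher and 4 lower genes at 16-fold or more.

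**Figure D2:**
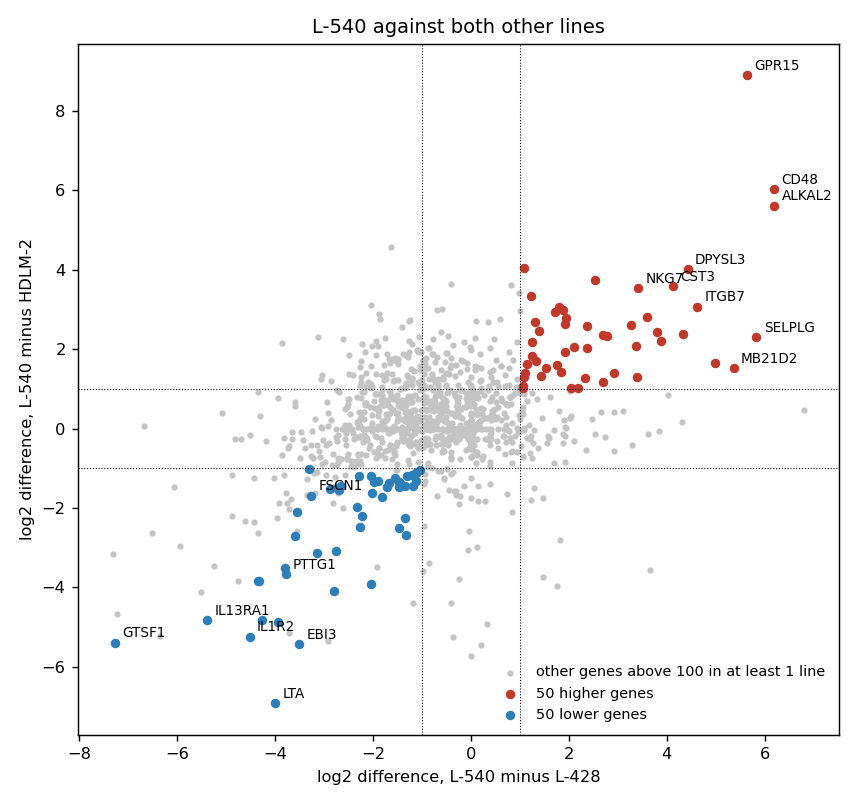
The log2 difference of L-540 from L-428 (horizontal axis) against that from HDLM-2 (vertical axis) for the 1128 genes above 100 in at least 1 line, 1 point per gene, with 2-fold differences as dotted lines. The 50 higher genes lie in the upper right corner, with GPR15, CD48 and ALKAL2 farthest out on the deposited signals, and the 50 lower genes in the lower left corner, with GTSF1 and LTA farthest out. Both axes share the L-540 array, so the diagonal trend is no result.

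Several receptors of the cell surface were higher in L-540. CD48 is a lipid-anchored protein of leukocytes that binds the receptors CD244 and CD2. It had a signal of 277 in L-540, while L-428 had 3.82 and HDLM-2 had 4.23, so that L-540 was at least 30.2-fold higher. Both other signals lay below the median of their array, and with an offset of 50 the log2 difference from the nearer line was 2.59. Of 11 measured SLAM receptors and partners, CD48 was the only one above 100 in L-540 and the only one in the higher group. Over all genes above 100 in L-540, the share in the higher group was 8.79%. Its neighbors in gene order on chromosome 1 are other SLAM genes, and these lay below the median of the L-540 array, with 4.11 for SLAMF1, 2.33 for SLAMF7, 3.17 for LY9 and 4.12 for CD244. HDLM-2 had 43.0 for SLAMF1.

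GPR15, a receptor that guides lymphocytes to the colon and the skin, had 1346 in L-540, against 27.1 and 2.83 in L-428 and HDLM-2. The difference from the nearer line, L-428, was 49.7-fold, or 4.18 on the log2 scale with the offset. ALKAL2, a secreted ligand of the receptor kinases ALK and LTK, had 123 in L-540, while L-428 had 1.67 and HDLM-2 had 2.49, which is at least 13.4-fold. Its log2 difference with the offset was 1.72. In both genes L-540 alone exceeded 100. Of 45 measured chemokines and chemoattractant receptors, GPR15 and CCR7 exceeded 100 in L-540, and GPR15 was the only member of the higher group. The share in that group was 8.79% over all genes above 100 in L-540. CCR7, which guides lymphocytes to lymph nodes, had 832 in L-540, against 398 and 1348 in L-428 and HDLM-2, so that L-540 lay between the other lines.

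The promoter windows of these 3 genes are shown because they have the largest ratios of deposited signals in the higher group, and they differ in base composition. They are taken from RefSeq (GRCh38.p14) and run from 250 bases before to 50 bases after the annotated start of transcription, in the direction of transcription. Capitals mark matches, on either strand, to TATAAA (the TATA box), AGATAA (bound by GATA factors), TGTGGT (bound by RUNX factors) and GGGCGG (bound by SP and KLF factors), out of 10 motifs searched. The others were CACGTG and CAGCTG (E-boxes), TGACTCA (bound by AP-1), TTCNNNGAA (bound by STAT factors) and the NF-kappaB and interferon response motifs. The observed over expected frequency of CpG was 0.337 in CD48, 0.185 in GPR15 and 1.09 in ALKAL2, and the GC content 44.7%, 38.0% and 77.7%. A match is no evidence of binding.
CD48 (minus strand of chr1:160711773-160712072): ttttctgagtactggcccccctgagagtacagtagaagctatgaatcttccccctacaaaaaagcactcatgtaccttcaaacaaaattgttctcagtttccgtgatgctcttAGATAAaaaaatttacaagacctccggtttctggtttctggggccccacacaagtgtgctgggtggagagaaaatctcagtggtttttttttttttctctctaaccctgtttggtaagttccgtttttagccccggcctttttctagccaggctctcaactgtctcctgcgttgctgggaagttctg
GPR15 (plus strand of chr3:98531728-98532027): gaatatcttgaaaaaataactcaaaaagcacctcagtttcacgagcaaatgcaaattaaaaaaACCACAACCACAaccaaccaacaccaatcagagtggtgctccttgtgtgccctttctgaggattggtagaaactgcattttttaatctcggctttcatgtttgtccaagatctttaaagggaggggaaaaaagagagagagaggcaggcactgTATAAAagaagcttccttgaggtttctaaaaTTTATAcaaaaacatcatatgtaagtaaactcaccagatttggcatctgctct
ALKAL2 (minus strand of chr2:288042-288341): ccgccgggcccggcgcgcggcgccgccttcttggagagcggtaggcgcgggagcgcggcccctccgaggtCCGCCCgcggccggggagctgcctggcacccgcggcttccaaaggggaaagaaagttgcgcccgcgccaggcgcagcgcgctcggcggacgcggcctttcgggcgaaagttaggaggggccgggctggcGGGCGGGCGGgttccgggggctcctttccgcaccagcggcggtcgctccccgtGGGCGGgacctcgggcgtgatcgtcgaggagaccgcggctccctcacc

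CD48 held 1 match to AGATAA, which is found in 7.45% of the promoters of all measured genes with a window. GPR15 held 2 matches to TATAAA, found in 8.60%, and 2 to TGTGGT, found in 10.1%. ALKAL2 held 4 matches to GGGCGG, found in 60.8%, of which 2 overlap.

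Adhesion receptors followed. ITGB7, the integrin beta subunit in gut-homing lymphocytes, had 225 in L-540, while L-428 had 9.14 and HDLM-2 had 26.7, which is 8.41-fold. SELPLG, the ligand of P-selectin on leukocytes, had 1031 in L-540, against 18.1 and 208 in L-428 and HDLM-2, a 4.96-fold difference from HDLM-2. HDLM-2 was above 100 for SELPLG, whereas L-428 was not. Of 39 measured integrins, selectins and adhesion receptors, these were the only ones above 100 in L-540, and both belonged to the higher group, against 8.79% of all genes above 100 in L-540. The median log2 difference of the list was 0 from each line, as over all genes.

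NKG7, a membrane protein of cytotoxic granules, had 168 in L-540, while L-428 had 15.8 and HDLM-2 had 14.5, which is 10.6-fold. PRF1, the pore-forming perforin of the same granules, had 103 in L-540, against 8.34 and 113 in L-428 and HDLM-2, so that L-540 and HDLM-2 lay close together. GZMA, GNLY and KLRD1 were between 1.36 and 5.32 in all lines. Of 21 measured cytotoxic granule and NK genes, 3 exceeded 100 in L-540. NKG7 was the only higher gene among them, against 8.79% of all genes above 100 in L-540. IL2RB, the receptor chain of several T cell growth factors, had 681 in L-540, while L-428 had 105 and HDLM-2 had 300, which is 2.27-fold. All 3 arrays exceeded 100 for IL2RB. IL2RA, a partner chain that raises the affinity of the receptor, had 45.8 in L-540, against 3.66 and 545 in L-428 and HDLM-2.

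DPYSL3, a collapsin response mediator protein known from growing axons, had 129 in L-540, while L-428 had 5.99 and HDLM-2 had 7.92, which is at least 14.01-fold. Its relative DPYSL2 had 136 in L-540, against 264 and 359 in L-428 and HDLM-2 and lay just outside the limit for lower genes. Of 37 measured axon guidance genes, DPYSL2 and DPYSL3 were the only ones above 100 in L-540. The next genes, which act on actin or small GTPases, were put together after their values were seen. GMFG, which remodels branched actin in blood cells, had 138 in L-540, while L-428 had 6.82 and HDLM-2 had 26.5. FMNL1, a formin of leukocytes, had 177 in L-540 and 46.4 in each other line, a tie. RASAL3 and ARHGAP1, which switch off small GTPases, were 5.36-fold and 2.50-fold above the nearer line, with 176 and 161 in L-540. Of 23 measured actin and cell shape genes, 9 exceeded 100 in each line, none was higher and FSCN1 was lower. Over all genes above 100 in L-540, 8.79% were higher, and over those above 100 in both other lines, 12.5% were lower.

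The calcium-dependent membrane-binding annexins were represented by 3 genes. ANXA6 had 278 in L-540, against 26.7 and 65.4 in L-428 and HDLM-2. ANXA1 had 623 in L-540, while L-428 had 145 and HDLM-2 had 149, with both other lines close together. ANXA5 had 496 in L-540, against 200 and 77.1 in L-428 and HDLM-2. The folds to the nearer line were 4.25, 4.19 and 2.48 in this order. The annexins were grouped after their values were seen, and other annexins are not described.

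Among transcription factors, KLF7 had 281 in L-540, while L-428 had 23.3 and HDLM-2 had 39.97, a 7.02-fold difference. Of 16 measured KLF factors, KLF7 and KLF13 exceeded 100 in L-540, and KLF7 was the only higher gene, against 8.79% of all such genes. KLF13 had 145 in L-540, against 68.0 and 79.2 in L-428 and HDLM-2, less than 2-fold above HDLM-2. PRDM1, the repressor Blimp that ends the B cell program in plasma cells, had 242 in L-540, while L-428 had 64.4 and HDLM-2 had 39.0. HOXB9, a homeobox factor, had 686 in L-540, against 91.1 and 261 in L-428 and HDLM-2, and BHLHE40, a repressor of the clock, had 581, 278 and 285 in the same order. L-540 was highest in each of these, and only for BHLHE40 did both other lines exceed 100.

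MALAT1, a long non-coding RNA of nuclear speckles, had the strongest L-540 signal of the group, with 2179 while L-428 had 423 and HDLM-2 had 362. CCNL2, a cyclin linked to splicing, had 223 in L-540, while L-428 had 43.3 and HDLM-2 had 54.7, and the splicing cofactor RBM39 had 253, 120 and 15.3. CCNL2 has 2 clusters, and the one with the lower mean did not meet the rule. The ribosomal protein genes RPL11 and RPL36AL had 228 and 200 in L-540 and were 2.42-fold and 2.13-fold above the nearer line. Ribosomal protein genes have many processed copies in the genome, so their signal may be shared with those copies. These genes were put side by side after their values were seen, and genes of RNA binding were also in the lower group. CMAHP, the human pseudogene of a sialic acid hydroxylase, had 260 in L-540, against 40.3 and 50.5 in L-428 and HDLM-2.

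Proteases and their inhibitors were also among the higher genes. CST3, the secreted cysteine protease inhibitor cystatin C, had 274 in L-540, while L-428 had 15.7 and HDLM-2 had 22.8, which is 11.99-fold. Of 21 measured cystatins and cathepsins, 3 exceeded 100 in L-540, and CST3 was the only higher gene, against 8.79% of all such genes. CSTB, the intracellular cystatin B, was tied at 822 in all lines. SERPINB1, an inhibitor of neutrophil proteases, had 362 in L-540, against 98.3 and 45.4 in L-428 and HDLM-2. The proprotein convertase FURIN, the calpain CAPN2 and the carboxypeptidase SCPEP1 were between 2.14-fold and 2.62-fold above the nearer line, with 135, 193 and 112 in L-540.

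SLC2A1, the glucose transporter of the plasma membrane, had 496 in L-540, while L-428 had 146 and HDLM-2 had 165, and NDRG1, a gene induced by hypoxia, had 144, 9.87 and 31.4. They were the higher genes among 21 measured hypoxia genes, of which 6 exceeded 100 in L-540, against 8.79% of all such genes. BNIP3, a mitophagy receptor of the same list, had 2.36 in L-540, against 353 and 60.4 in L-428 and HDLM-2, so that members of this list lay on both sides. CDKN1B, which encodes an inhibitor of cyclin-dependent kinases, had 105 in L-540, while L-428 had 38.9 and HDLM-2 had 41.8, and was the only one of 10 measured cell cycle inhibitors above 100 in any line. ARRDC3, an arrestin-like adaptor of receptor degradation, had 106, 10.96 and 17.2. The autophagy protein MAP1LC3B had 589 in L-540, against 267 and 192 in L-428 and HDLM-2.

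Of the other higher genes, ARL6IP5 and ATL3, which shape the endoplasmic reticulum, had 1189 and 323 in L-540, against at most 310 and 93.0 in the other lines. ATL3 has 2 clusters, and the one with the lower mean did not meet the rule. ZFAND5, a zinc finger protein that binds the proteasome, had 146 in L-540, while L-428 had 44.4 and HDLM-2 had 19.1. NDFIP1, an adaptor of ubiquitin ligases, had 145 in L-540 and was tied at 50.2 in the other lines. CHSY1, a chondroitin synthase, had 156 in L-540, and LRPAP1, a chaperone of lipoprotein receptors, had 160, with folds of 2.67 and 2.38. CCDC3, MFSD6, TRAF3IP3, YWHAG and LCE5A had between 103 and 221 in L-540 and were between 2.02-fold and 3.13-fold above the nearer line. LCE5A belongs to a family of near-identical skin genes, so its signal may be shared with other members.

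**Figure D3:**
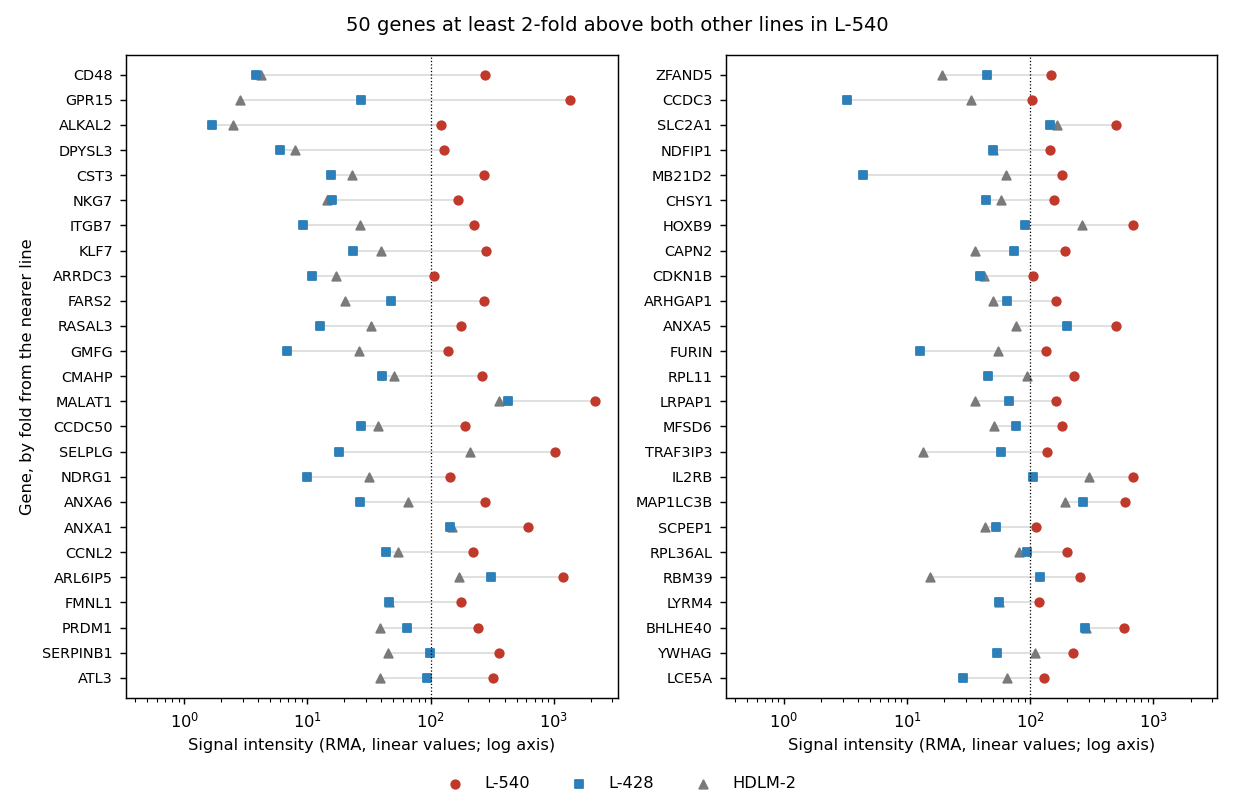
Signal intensities (linear RMA values, log axis) of the 50 higher genes in the 3 lines, 1 point per array, ordered by the fold of L-540 over the nearer line from the upper left to the lower right, with 100 as a dotted line. L-540 is rightmost in every row by the rule. The other lines lie near each other for CD48 and far apart for MB21D2 and SELPLG.

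A few of the higher genes were neighbors. LYRM4 and FARS2 follow each other on chromosome 6 and serve mitochondria, LYRM4 in the assembly of iron-sulfur clusters and FARS2 in charging a transfer RNA. FARS2 had 273 in L-540, against 47.4 and 20.3 in L-428 and HDLM-2, and LYRM4 had 118 in L-540 and was tied at 56.2 in the other lines. LYRM4 has 2 clusters, and the one with the lower mean did not meet the rule. The next measured gene beyond FARS2, NRN1, had 3.19 in L-540, while L-428 had 18.5 and HDLM-2 had 40.8, and RPP40, on the other side of LYRM4, was tied at 4.02. The RefSeq promoter windows of FARS2 (plus strand) and LYRM4 (minus strand) overlap by 156 bases. This stretch is shown because the start sites of both genes lie within it, on opposite strands, with its 6 matches to GGGCGG, on either strand, in capitals. Its GC content is 81.4%.
FARS2 and LYRM4 (chr6:5260901-5261056, plus strand, GRCh38.p14): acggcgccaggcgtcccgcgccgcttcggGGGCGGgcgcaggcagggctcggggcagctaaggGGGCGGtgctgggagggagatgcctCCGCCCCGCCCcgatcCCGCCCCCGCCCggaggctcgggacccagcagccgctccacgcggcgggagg

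On chromosome 3, CCDC50 and MB21D2 were separated by 1 measured gene. CCDC50, a ubiquitin-binding protein, had 189 in L-540, against 27.5 and 37.7 in L-428 and HDLM-2, and MB21D2 had 182, 4.40 and 63.1. UTS2B, which encodes a urotensin peptide and precedes CCDC50, had 55.9 in L-540, while L-428 had 1.06 and HDLM-2 had 1.46, and stayed outside the higher group as it did not exceed 100. FGF12, between CCDC50 and MB21D2, was tied at 1.74, and OSTN, beyond UTS2B, at 1.36. ZFAND5 and ANXA1 lay 3 steps apart on chromosome 9. Of the higher genes, 5 were on chromosome 3, which holds 5.69% of the genes, and 5 on chromosome 6, which holds 5.35%, so that each made up 10% of the group. HSPB1, a lower gene, and YWHAG, a higher gene, are direct neighbors.

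**Figure D4:**
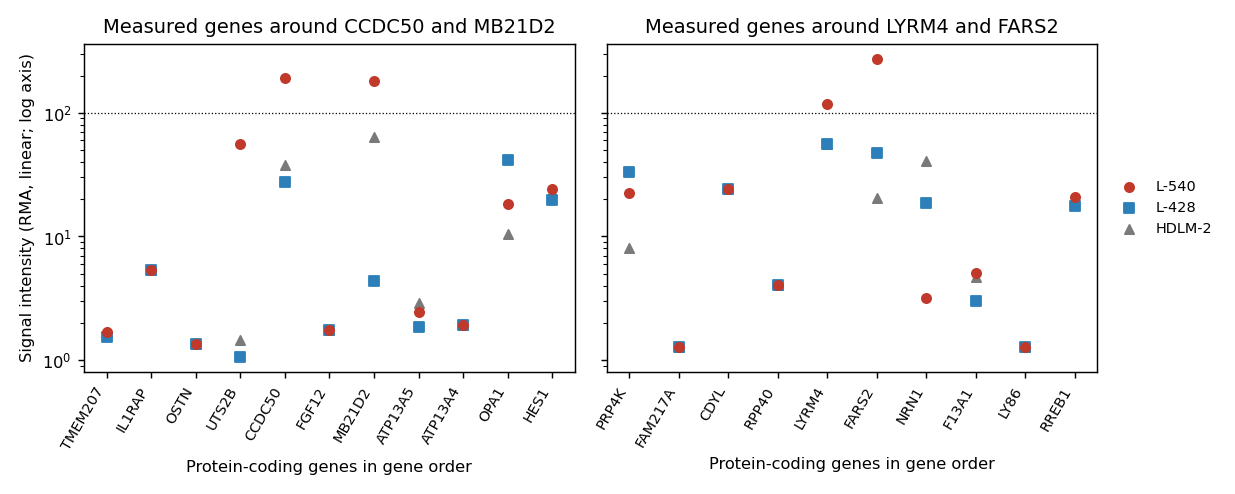
Signal intensities (linear RMA values, log axis) of measured protein-coding genes in gene order around CCDC50 and MB21D2 (left) and around LYRM4 and FARS2 (right), 1 point per array, with 100 as a dotted line. UTS2B, CCDC50, MB21D2, LYRM4 and FARS2 are at least 2-fold above both other lines in L-540. All of these except UTS2B exceed 100 there, and no other gene shown exceeds 100 in any line. Tied points hide each other.

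GTSF1 acts with small RNAs in the silencing of transposons in germ cells. It had a signal of 3.67 in L-540, against 569 and 154 in L-428 and HDLM-2, so that L-540 was at least 20.8-fold lower. IL13RA1, a receptor chain for IL13, had 4.20 in L-540, while L-428 had 175 and HDLM-2 had 119, which is at least 16.04-fold. IL1R2, a decoy receptor that captures an inflammatory interleukin, had 4.74 in L-540, against 109 and 179 in L-428 and HDLM-2, which is at least 14.7-fold. In these 3 genes L-540 lay below the median of its array, 7.41, and their log2 differences with the offset were -1.93, -1.64 and -1.53. Their promoter windows are shown in the same way as those above, since they have the largest ratios of deposited signals in the lower group. PTGER4 and PTTG1 had larger differences with the offset, -2.08 and -2.31. Capitals mark CAGCTG (an E-box) in GTSF1 and GGGCGG in IL13RA1, and the window of IL1R2, the first of 2 in the table, held no match to the 10 motifs.
GTSF1 (minus strand of chr12:54473553-54473852, GRCh38.p14): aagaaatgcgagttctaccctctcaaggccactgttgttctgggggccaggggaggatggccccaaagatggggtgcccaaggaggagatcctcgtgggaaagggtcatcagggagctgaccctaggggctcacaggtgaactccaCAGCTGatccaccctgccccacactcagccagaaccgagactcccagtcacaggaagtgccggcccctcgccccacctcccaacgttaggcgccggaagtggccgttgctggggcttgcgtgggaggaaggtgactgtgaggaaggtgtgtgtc
IL13RA1 (plus strand of chrX:118727356-118727655, GRCh38.p14): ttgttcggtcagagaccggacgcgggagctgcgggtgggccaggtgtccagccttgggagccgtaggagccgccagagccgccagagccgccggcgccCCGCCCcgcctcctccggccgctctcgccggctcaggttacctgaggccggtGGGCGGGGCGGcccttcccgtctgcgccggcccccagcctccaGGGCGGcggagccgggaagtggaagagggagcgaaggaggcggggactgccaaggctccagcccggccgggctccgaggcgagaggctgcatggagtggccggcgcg
IL1R2 (plus strand of chr2:101998711-101999010, GRCh38.p14): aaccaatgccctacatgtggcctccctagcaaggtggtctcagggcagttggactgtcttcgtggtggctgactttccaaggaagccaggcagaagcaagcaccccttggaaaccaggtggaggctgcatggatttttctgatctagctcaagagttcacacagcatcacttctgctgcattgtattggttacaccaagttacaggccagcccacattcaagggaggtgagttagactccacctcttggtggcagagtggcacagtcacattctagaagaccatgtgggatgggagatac

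GTSF1 held 1 match to CAGCTG, found in 18.02% of the promoters of measured genes, and IL13RA1 held 4 to GGGCGG, of which 2 overlap. The observed over expected CpG frequency was 0.349 in GTSF1, 0.808 in IL13RA1 and 0.0494 in IL1R2.

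Of 57 measured interleukins, colony factors and receptors, 5 exceeded 100 in both L-428 and HDLM-2, and 4 of these were lower in L-540, against 12.5% of all such genes. They were IL13RA1, IL1R2, EBI3 and IL32, and the gene that was not lower was IL2RB. EBI3, a subunit of heterodimeric cytokines, had 11.1 in L-540, while L-428 had 126 and HDLM-2 had 478. IL32, a cytokine of activated lymphocytes, had 137 in L-540, against 299 and 344 in L-428 and HDLM-2, and was 2.18-fold below L-428. The median log2 difference over the list was 0 from each line, as over all genes.

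LTA, the cytokine lymphotoxin alpha, had 10.2 in L-540, while L-428 had 163 and HDLM-2 had 1230, a 16.02-fold difference from L-428. It was the lower gene among 37 measured TNF ligands and receptors. Of these, 2 exceeded 100 in both other lines, and over all such genes 12.5% were lower. ICAM1, the adhesion ligand of leukocyte integrins, had 71.7 in L-540, against 198 and 405 in L-428 and HDLM-2. Only 1 gene of the adhesion list, ICAM1, exceeded 100 in both other lines, so no other could be lower. PTGER4, a receptor of prostaglandin E, had 10.7 in L-540, while L-428 had 206 and HDLM-2 had 301, which is 19.3-fold. Of 36 measured HL cell markers, 10 exceeded 100 in both other lines and 3 of these were lower, FSCN1, IL13RA1 and EBI3, against 12.5% of all such genes. The median log2 difference of the HL cell markers was -0.63 from L-428 and -0.80 from HDLM-2, and over all genes both medians were 0. All genes include many tied ones, whereas 25 of the 36 markers were expressed in some line. For the 1128 expressed genes the medians were -0.77 and 0.081, so a negative median was found there too from L-428, but not from HDLM-2. Neither set matches the list, which holds expressed and unexpressed genes, so the size of a shift cannot be judged. Their summed signal was 6515.8 for L-540, 6515.6 for L-428 and 11810 for HDLM-2.

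Signalling and surface genes of the group included RASGRP1, an activator of Ras downstream of antigen receptors, with 15.9 in L-540, against 106 and 134 in L-428 and HDLM-2. MAL, a membrane raft protein of T cells, had 92.8 in L-540, while L-428 had 446 and HDLM-2 had 518. IGSF3, an immunoglobulin superfamily protein, had 10.4, 159 and 303 in the same order, and MMD had 15.4, 107 and 260. ITM2C had 13.6 in L-540, against 189 and 154 in L-428 and HDLM-2. TCF4, an E protein that drives B cell and plasmacytoid dendritic cell genes, had 22.9 in L-540 and was tied at 201 in the other lines. AHCYL1, a regulator of calcium release, had 74.2 in L-540, while L-428 had 347 and HDLM-2 had 339.

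PTTG1, the securin that guards sister chromatid separation, had 25.7 in L-540, against 353 and 325 in L-428 and HDLM-2, which is 12.7-fold. MKI67, a marker of cycling cells, had 36.5 in L-540, while L-428 had 237 and HDLM-2 had 106, and the mitotic kinase PLK1 had 52.4, 257 and 119. TUBG1, the gamma-tubulin of the centrosome, had 157, 429 and 403 in the same order. Of 35 measured proliferation genes, 1 exceeded 100 in L-540, against 16 and 3 in L-428 and HDLM-2, and MKI67 and PLK1 were the lower genes among the 3 above 100 in both other lines, where the share over all genes was 12.5%. The median log2 difference of the list was -1.50 from L-428 but 0 from HDLM-2, and 0 from each over all genes. For the 1128 expressed genes the medians were -0.77 and 0.081, so a negative median from L-428 was not particular to this list. The list also holds unexpressed genes, so the sizes of these medians are not compared. No proliferation gene lay above both other lines, and 17 of the 35 lay below both, while of all 14232 genes 1393 lay above both and 1505 below both. Of all genes, 5659 were tied in the 3 arrays and could lie on neither side, whereas 16 of the 35 were expressed in some line. The matching counts for expressed genes were not made, so the size of this contrast cannot be judged.

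SMARCA2, an ATPase of chromatin remodelling complexes, had 20.6 in L-540, while L-428 had 247 and HDLM-2 had 134, which is 6.50-fold. The histone genes H2BC14, H4C3 and H2AZ1 had 556, 44.0 and 267 in L-540 and were between 2.28-fold and 2.73-fold below the nearer line. Histone genes have near-identical copies, so this signal may be shared between them. SET, a histone chaperone with copies elsewhere in the genome, had 106 in L-540, against 1044 and 215 in L-428 and HDLM-2. CARM1, an arginine methyltransferase, had 49.2 in L-540, while L-428 had 126 and HDLM-2 had 135. The RNA-binding genes HNRNPL and SNRPA were 2.18-fold and 2.55-fold below the nearer line, with 95.2 and 70.4 in L-540.

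Metabolic genes included PFKP, a phosphofructokinase of glycolysis, with 8.67 in L-540, against 176 and 124 in L-428 and HDLM-2, which is 14.3-fold. RDH10, which oxidizes retinol, had 15.98 in L-540, while L-428 had 320 and HDLM-2 had 227. The mitochondrial genes NDUFB9, COX6C and ATP5MC1, which encode subunits of the respiratory chain and the ATP synthase, had 66.6, 96.5 and 37.1 in L-540, and their folds were 4.26, 2.38 and 2.77. UCP2, a carrier of the inner mitochondrial membrane, had 71.3 in L-540, against 180 and 455 in L-428 and HDLM-2, and PRDX3, a mitochondrial peroxidase, had 94.8, 207 and 204. LPCAT3 and PTDSS1, which make phospholipids, had 51.6 and 57.7 in L-540, and the sugar transporter SLC50A1 had 52.0. The folds of these 3 genes ran from 2.55 to 3.28.

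Lysosomal and antigen presentation genes lay in the group as well. IFI30, a lysosomal thiol reductase that prepares antigens, had 69.2 in L-540, while L-428 had 348 and HDLM-2 had 272. HLA-DPB1, a chain of an HLA class II molecule, had 443, 1829 and 1003 in the same order. They were the lower genes among 26 measured antigen presentation genes, of which 9 exceeded 100 in both other lines, against 12.5% of all such genes. HLA-DPA1, its partner chain, had 1126 in L-540, against 2149 and 2790 in L-428 and HDLM-2, which is 1.91-fold and just outside the limit, whereas CD74, the invariant chain, had 1688, 728 and 2026. GRN, the lysosomal progranulin, had 57.1 in L-540, while L-428 had 233 and HDLM-2 had 176, and LIPA, the lysosomal acid lipase, had 37.1, 273 and 105. The heat shock protein HSPB1 had 27.1 in L-540, against 111 and 410 in L-428 and HDLM-2.

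The other lower genes were TPGS2, FAF2, KIAA1191, SAR1A, MLF2, DCAKD and GRINA. They had between 43.7 and 129 in L-540 and were between 2.06-fold and 2.84-fold below the nearer line. FAF2 and KIAA1191 lay 3 steps apart on chromosome 5. Chromosomes 8, 10 and 17 each held 5 lower genes, or 10% of them, against 3.67%, 3.82% and 5.91% of all genes, and chromosome 19 held 6, or 12%, against 6.68%.

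**Figure D5:**
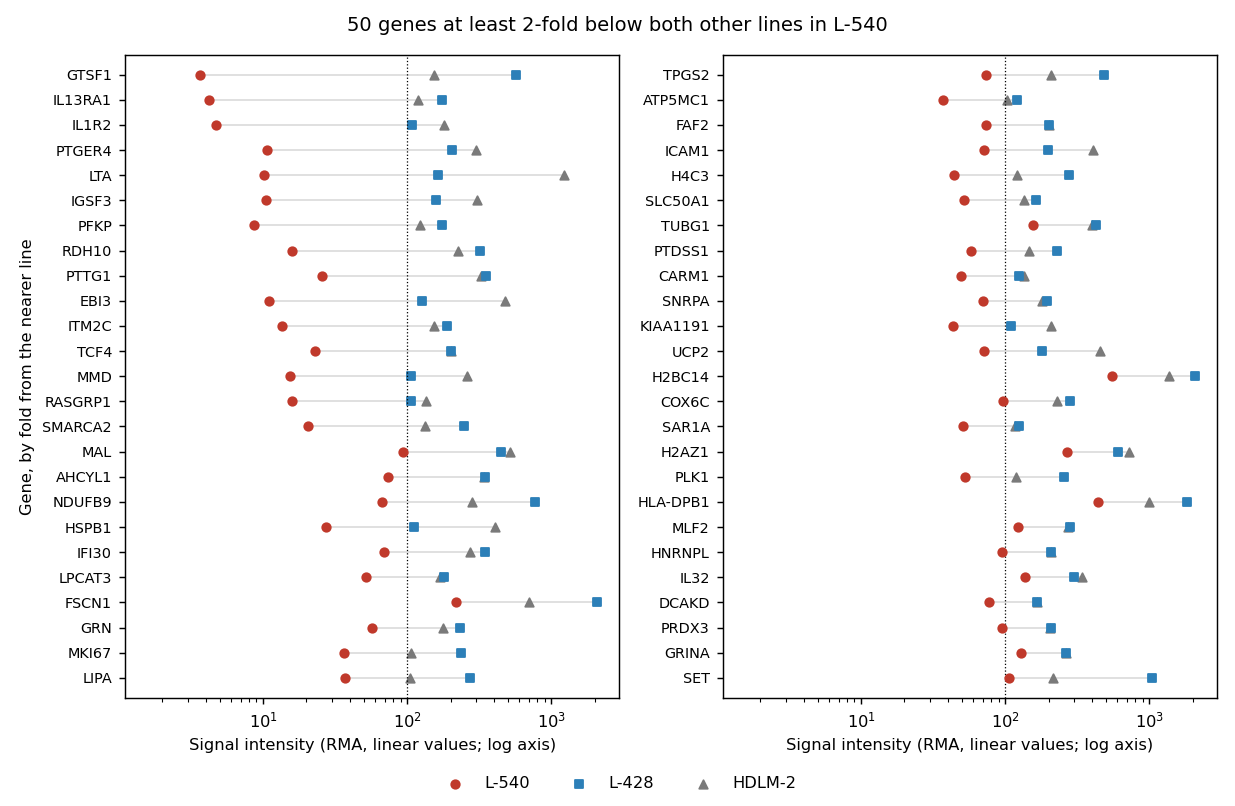
Signal intensities (linear RMA values, log axis) of the 50 lower genes in the 3 lines, 1 point per array, ordered by the fold of the nearer line over L-540 from the upper left to the lower right, with 100 as a dotted line. L-540 is leftmost in every row by the rule and lies below 100 for 41 genes. L-428 and HDLM-2 are tied for TCF4 and far apart for LTA and SET.

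Many of the lists held no gene of either group, which included 0.351% of all genes in each direction. No myeloid, red cell and platelet or cancer-testis gene exceeded 100 in any line, so none of these could be in a group. Of the T cell genes, 0 exceeded 100 in L-540 and 0 in both other lines, so none of them could be either. Of the B cell genes, 3 exceeded 100 in L-540 and 1 in both other lines. Of 34 measured T cell genes, 30 B cell genes, 22 myeloid genes and 12 red cell and platelet genes, PRDM1 was the only one that was higher, and none was lower. MYC, a driver of cell growth, had 172 in L-540, while L-428 had 39.9 and HDLM-2 had 212, and so did not set L-540 apart from HDLM-2. Of 23 measured JAK-STAT genes none was in either group, but only 5 exceeded 100 in L-540 and 2 in both other lines. STAT3 had 468, 547 and 468 in the 3 lines. PIM1 and PIM2, kinases induced by STAT factors, were highest in L-540 (187 and 335), followed by HDLM-2 (160 and 249) and L-428 (50.1 and 53.4). None of the 36 measured interferon response genes, the 6 cancer-testis antigens, the 20 fibroblast and matrix genes, the 16 serine and one-carbon enzymes, the 11 housekeeping genes or the 14 AP-1 factors was in either group. Few of them could be, as 1 gene each of the interferon, fibroblast and AP-1 lists exceeded 100 in L-540, and 1 each in both other lines. For the enzymes these counts were 3 and 2, and for the housekeeping genes 6 and 6.

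Genes known to respond to histone deacetylase inhibitors were looked at because of the sample descriptions. Of 8 measured genes that such inhibitors raise, none exceeded 100 in L-540 or in both other lines, so none could be in a group. In L-540, 3 of the 8 lay below both other lines and 1 above both. Below both were TXNIP, SYT11 and MT1X, and above both was CDKN1A. The genes of this list were named after their values were seen. TXNIP, an inhibitor of thioredoxin, had 4.91 in L-540, while L-428 had 66.2 and HDLM-2 had 39.1, and SYT11, a synaptotagmin, had 9.21, 42.3 and 38.9. MT1X had 3.92 in L-540 and was tied at 6.82 in the other lines. CDKN1A had 48.3 in L-540, against 33.0 and 35.1 in L-428 and HDLM-2. CLU lay between the other lines, with 58.8, 24.1 and 166 in the same order. GADD45B, HDAC11 and CRIP2 were tied in all lines. For the list, the median log2 difference of L-540 was 0 from L-428 and -0.40 from HDLM-2. Of 6 measured genes that they lower, 1 exceeded 100 in L-540 and 0 in both other lines, and none was in either group, with medians of -1.20 and -0.17. Over all genes both medians were 0, and for the 1128 expressed genes they were -0.77 and 0.081. Whether a treatment has a part in the differences was not tested.

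Among the 43 higher genes with a promoter window, 10 had a CpG observed over expected frequency below 0.5 (23.3%), as had 9 of 42 lower genes (21.4%). The share was 26.6% over 11385 measured genes and 9.13% over 964 genes above 100 in at least 1 line. The 10 higher genes included the surface and granule genes GPR15, ITGB7, NKG7 and CD48, and the 9 lower genes included IL1R2, LTA, IL32, EBI3 and GTSF1. GGGCGG was found in 69.8% of higher and 71.4% of lower genes, against 74.2% of the genes above 100 in at least 1 line. CACGTG, the E-box bound by MYC, was found in 11.6% and 11.9%, against 10.3%. TGACTCA, the site of AP-1, was found in 1 higher and 4 lower genes, and the NF-kappaB and interferon response motifs in none of either group. In all windows of the table, GGGCGG was found in 45.0%, CACGTG in 7.26% and TGACTCA in 4.95%.

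The limit of 2-fold divides genes of similar values. Just inside it on the higher side were LCE5A (2.02-fold), YWHAG (2.02-fold), BHLHE40 (2.04-fold), LYRM4 (2.09-fold) and RBM39 (2.12-fold), and just outside were MDM2 (1.998-fold), MEF2C (1.97-fold), HLA-E (1.94-fold), IL10RA (1.93-fold) and ESYT2 (1.93-fold). MDM2 had 135 in L-540, against 67.8 and 17.5 in L-428 and HDLM-2. On the lower side SET (2.03-fold), GRINA (2.06-fold), PRDX3 (2.15-fold), DCAKD (2.17-fold) and IL32 (2.18-fold) were inside, and DPYSL2 (1.95-fold), CKS2 (1.94-fold), HILPDA (1.91-fold), HLA-DPA1 (1.91-fold) and H1-1 (1.88-fold) were outside. After quantile normalization of the 3 arrays, 44 of the higher and 35 of the lower genes were still at least 2-fold from the nearer line, and none changed its direction. The higher genes that fell below 2-fold there were BHLHE40, IL2RB, LCE5A, LYRM4, RPL11 and YWHAG. The lower ones were CARM1, DCAKD, FAF2, GRINA, H2AZ1, HNRNPL, ICAM1, IL32, KIAA1191, MLF2, PRDX3, SAR1A, SNRPA, TUBG1 and UCP2.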

How the data were processed

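Per the labels, the authors ran RMA in Affymetrix Expression Console, and the deposited values are its signal intensities on a linear scale. RMA subtracts background, brings the arrays to a common distribution and combines probes by median polish. The submitters' processing notes name hg18. The paper describes a joint run with further arrays, and it is unknown here whether these values stem from it. The platform annotation pairs 14432 of 22011 clusters with a single gene, and only these were used (2408 have several genes, 5171 none). RefSeq (GRCh38.p14) held 14404 of them under a current symbol. This gave 14232 genes, and the highest-mean cluster stood for each of the 197 genes with several. Differences are log2 ratios without a pseudocount. Members and lists were chosen with earlier results of these data known. By rule, named genes were the 40 higher and 40 lower genes with the largest ratio to the nearer line, the 20 brightest higher genes, list members, markers and the 5 genes nearest the limit on each side. Other members, neighbors such as UTS2B and NRN1, and genes below the threshold were named after their values were seen. A single array per line allows no p-value, and the 3 arrays limit the precision. Motifs were searched on both strands of the first promoter window of a gene. Gene selection was tested on simulated data. Alternatives were other thresholds and folds, an offset, one median, quantile normalization, other clusters and single lines. Software was Python 3.11.15 with numpy 2.4.6, pandas 2.3.3 and, for figures, matplotlib 3.10.9.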

Additional observations from a re-analysis of the deposited data

How the results depend on the processing

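The count of higher genes, 50, was 25 at a threshold of 200, 165 with no threshold, 20 at 4-fold, 32 with an offset of 50 before the logarithm, 86 over every transcript cluster, 103 against L-428 only and 143 against HDLM-2 only. The count of lower genes, 50, was 101 at a threshold of 50, 22 at 200, 213 with no threshold, 19 at 4-fold, 30 with the offset, 484 against L-428 only and 99 against HDLM-2 only. These changes follow from how each alternative is built. Shifting the arrays to one median, which moves the median difference from L-428 over all genes to 0.31, gave 59 higher and 40 lower genes, with 47 and 37 shared with the values as deposited. Quantile normalization gave 62 and 36, with 44 and 29 shared. The lowest-mean cluster per gene gave 47 and 50, a threshold of 50 gave 70 higher genes, and every cluster 71 lower. With the lowest-mean cluster, the genes lost were CCNL2, ATL3 and LYRM4, the 3 higher genes with more than 1 cluster. None of the 100 named differences changed its sign under the offset, one median or quantile normalization, and 62, 89 and 79 of them were still at least 2-fold. Raising signals below the array median to it, an alternative chosen after seeing the data, gave 50 and 50, and all 100 differences were still at least 2-fold. This outcome was fixed in advance, as the array medians lie far below the threshold of 100. The offset shrinks differences of low signals and keeps the order of the lines, so it could not change a sign. Nor could the shift to one median, which moved the log2 differences by 0.31 from L-428 and by -0.049 from HDLM-2. Both lie within the 2-fold limit that every named difference meets by the rule. No paired analysis was possible because a single array stands for each line.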

Other observations

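Some genes stood apart in L-540 at signals below the threshold. They were chosen after their values were seen. With an L-540 signal between 50 and 100, 5 genes were at least 4-fold above both other lines. CD160, a receptor of cytotoxic lymphocytes, had 59.4 in L-540, while L-428 had 1.99 and HDLM-2 had 2.14. DPP4, the peptidase CD26 of activated T cells, had 81.4, 3.18 and 5.31, and PEX5L had 87.2, 3.98 and 4.75. The others were UTS2B and KLHL24. Of the 5, UTS2B, PEX5L and KLHL24 are on chromosome 3, which holds 5.69% of the genes, and nothing is read from so few genes. In the other direction, 18 genes were at least 4-fold lower in L-540 where the lower of the other lines had between 50 and 100. How many genes lay in either range of signals was not counted, so no share is given. CD80, a costimulatory ligand of T cells, had 3.65 in L-540, against 55.2 and 92.7 in L-428 and HDLM-2, and ALCAM, the adhesion ligand of CD6, had 4.18, 78.4 and 63.1. TCF12, an E protein like TCF4, had 6.78, 73.0 and 72.2, and TNF had 8.37, 56.2 and 93.2. CSF1, the growth factor of macrophages, had 13.7 in L-540, while L-428 had 212 and HDLM-2 had 65.3.

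Clusters without a single gene name also met the rules. Of 5171 clusters with no gene in the annotation, 28 were higher and 18 lower in L-540, and of 2408 clusters with several genes, 8 were higher and 3 lower. The brightest unnamed or shared cluster among the higher ones had 4154 in L-540, against 1603 and 1902 in L-428 and HDLM-2. The one with the largest ratio among the lower ones had 5.45 in L-540, while L-428 had 415 and HDLM-2 had 534. These clusters cannot be assigned to a gene here.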
